A study of Mus musculus with 9 samples.

Results

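Of the 46078 genes in the deposited tables of 3 macrophage cultures, 10 were taken by gene symbol as the core of antigen presentation on major histocompatibility complex (MHC) class II, and all 10 symbols were found. They are the transcriptional activator Ciita, the promoter-binding factor Rfx5, the invariant chain Cd74, the class II chains H2-Aa, H2-Ab1 and H2-Eb1, the peptide exchange factors H2-DMa, H2-DMb1 and H2-DMb2, and the endosomal protease Ctss. The 3 cultures of C57BL/6J mice were FLM_G, FLM_M and BMM, each with 3 libraries. FLM_G cells came from livers of fetuses at gestational day 15 to 19 and were kept in medium with 10% fetal bovine serum and recombinant GM-CSF at 30 ng/ml, a growth factor of granulocytes and macrophages. FLM_M cells came from livers of the same stage and were kept with 20% fetal bovine serum and 30% L-cell supernatant, in which M-CSF (macrophage colony-stimulating factor) is supplied. BMM cells came from bone marrow, and the labels do not describe their medium. Every culture had been kept for at least 8 weeks. The title calls M-CSF-responsive immortal macrophages a model of macrophage function, and the comparisons address how the cultures differ. The libraries were made from wells plated in triplicate, and nothing in the labels ties the wells to different animals or cultures, so p-values measure the spread between these libraries only, which may be technical.

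Class II molecules are paired alpha and beta chains that carry peptides from endosomes to the cell surface, where helper T cells read them. The invariant chain fills the groove of new class II molecules, cathepsin S trims it in endosomes, and the H2-DM pair then exchanges the remaining fragment for peptide. CIITA does not bind DNA itself but acts through the RFX complex, CREB and NF-Y, which sit on the X and Y boxes of these promoters. Macrophages carry little class II at rest and raise it after interferon-gamma, whereas dendritic cells and B cells hold it constantly. C57BL/6 mice make no E alpha chain, so that the H2-Eb1 chain has no partner in this strain.

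Promoter stretches are shown so that the class II genes can be compared by the boxes named above. Windows of 250 bases before to 50 after a transcription start were taken from RefSeq (GRCm38.p6) for 7 of the 10 members. Ciita and H2-Ab1 matched no window, and Cd74 was not included in the search. Capitals mark GNAACT, a core of the X box, and GATTGG, the core of the Y box, and each stretch is read along the gene's own strand.
H2-Aa (chr17:34287852-34287919, minus strand): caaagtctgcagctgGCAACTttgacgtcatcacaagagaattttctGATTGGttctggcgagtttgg
H2-Eb1 (chr17:34305761-34305827, plus strand): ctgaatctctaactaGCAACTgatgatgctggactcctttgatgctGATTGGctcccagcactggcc
H2-DMb1 (chr17:34153082-34153149, plus strand): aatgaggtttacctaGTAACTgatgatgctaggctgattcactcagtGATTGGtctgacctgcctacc
H2-DMb2 (chr17:34145111-34145178, plus strand): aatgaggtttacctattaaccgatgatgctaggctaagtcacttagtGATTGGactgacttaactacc
H2-Eb2 (chr17:34325528-34325594, plus strand): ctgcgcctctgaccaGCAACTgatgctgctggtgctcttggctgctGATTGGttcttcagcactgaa
The X core lay 81 bases before the start in H2-Aa, 91 in H2-Eb1 and 94 in H2-DMb1. From the first base of the X core to the first base of the Y core there were 32 bases in H2-Aa and H2-DMb1 and 31 in H2-Eb1. The same pair, on one strand with 25 to 45 bases between first bases, occurred in 111 of 32851 promoter windows (0.338%), whereas GNAACT alone was found in 42.8% and GATTGG alone in 16.1%, both strands counted. The H2-DMb2 stretch equals that of H2-DMb1 at 59 of 68 bases and holds the Y core without GNAACT. H2-Eb2, a class II gene outside the 10, holds the pair. The windows of Rfx5, Ctss and H2-DMa held no such pair, and neither did those of H2-Oa and H2-Ob, class II genes outside the 10. These letters were chosen after the windows were seen, and a match describes sequence only.

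Levels are FPKM, a measure of reads per transcript length and library size, brought to a common scale between libraries. Log2 changes were computed after adding 1 to the FPKM, so those of low genes are understated, and each comes with its standard error (SE) from limma. A gene was called where the Benjamini-Hochberg adjusted p was under 0.05 among the 11952 genes tested, those reaching 1 FPKM as deposited, before scaling, in 3 or more libraries. The smallest steps in the FPKM correspond to 28390000 to 35470000 reads per library. Without scaling the median gene lay 0.34 lower in FLM_G than in BMM and 0.39 lower in FLM_G than in FLM_M (log2). FLM_G against BMM then gave 2081 genes higher and 6775 lower, where scaling gave 4044 and 4081. FLM_G against FLM_M gave 2218 higher and 7075 lower without scaling, where scaling gave 4246 and 4195. Of 8 macrophage markers, all had at least 1 FPKM in every culture. Their summed level was 26704 to 26994 FPKM in FLM_G, 5941 to 6128 in FLM_M and 7826 to 8246 in BMM, and most of the FLM_G sum was the lysozyme gene Lyz2 at 25600 ± 186 FPKM. Marker by marker, 2 of the 8 were called higher and 5 lower in FLM_G than in BMM (2 and 6 without scaling), and 2 higher and 6 lower in FLM_G than in FLM_M (the same counts without scaling). The M-CSF receptor gene Csf1r was among those lower in FLM_G, at 119 ± 5 FPKM in FLM_G, 433 ± 28 in FLM_M and 368 ± 8 in BMM. Bulk RNA cannot tell fewer expressing cells from less RNA per cell. BMM libraries expressed 4 Y-linked genes, such as Eif2s3y at 11.0 ± 0.3 FPKM, that were at or near 0 in FLM_G and FLM_M, and these expressed Xist, so that sex and culture cannot be told apart in the comparisons with BMM.

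FLM_G cells held the most class II RNA of the 3 cultures, BMM less, and FLM_M cells almost none of the classical chains. Of the 9 members that passed the filter on low values, 9 were higher in FLM_G than in BMM, with a median log2 change of 2.02 (all tested genes, 0.00). At the same threshold 68.0% of all tested genes were called in that comparison, 33.8% higher and 34.1% lower. Between FLM_G and FLM_M, 8 of the 9 were higher in FLM_G and none was lower, with a median of 3.40 (all tested genes, 0.00), where 70.6% of all tested genes were called, 35.5% higher and 35.1% lower. Between FLM_M and BMM, 5 members fell, 2 rose and 2 were not called, with a median of -1.16 (all tested genes, 0.00), where 44.6% of all tested genes were called, 22.7% higher and 21.9% lower. H2-Aa and H2-Ab1 lay under 1 FPKM in FLM_M and passed the filter through the other 2 cultures, so their place in the test was tied to their high level there. The 3 comparisons share libraries and are not independent of each other.

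**Figure D1:**
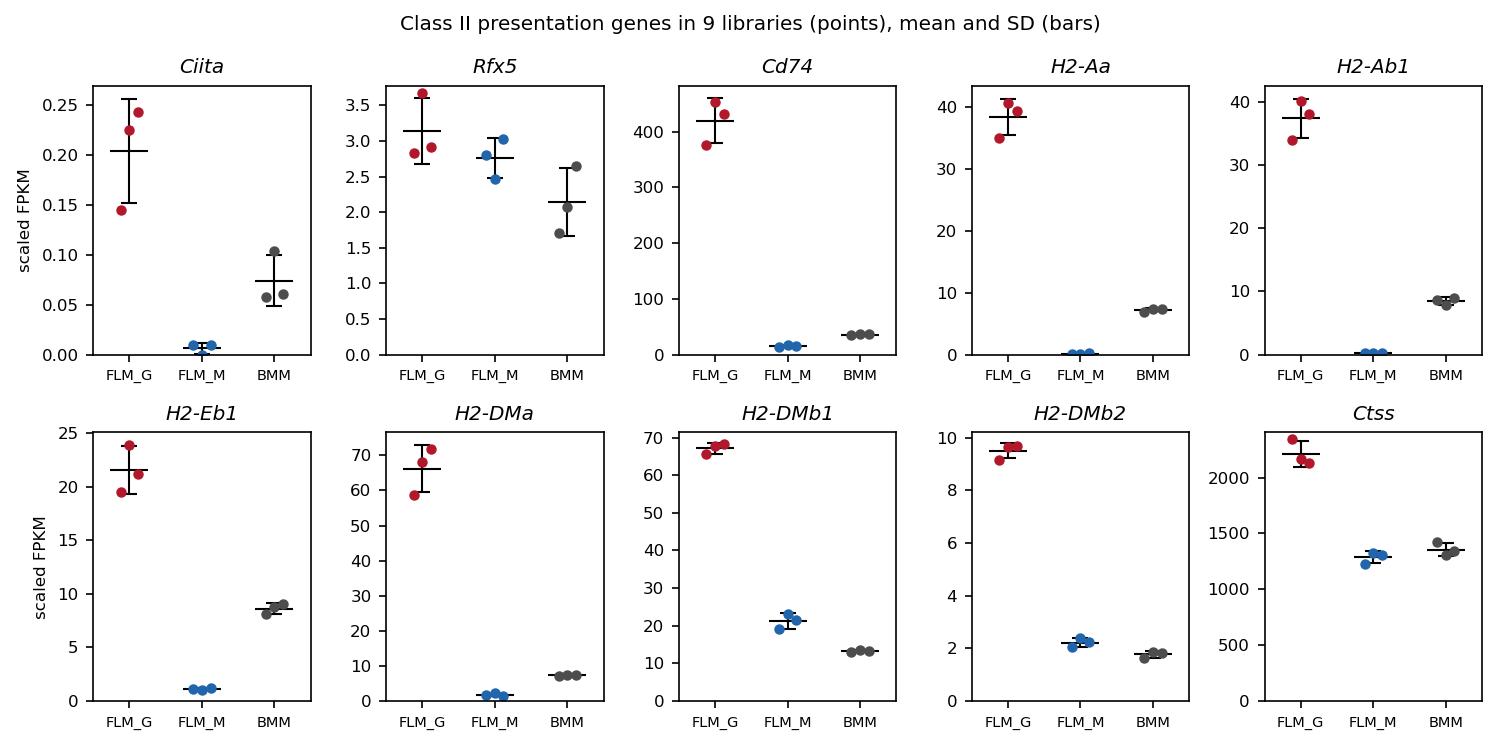
Scaled FPKM of the 10 class II presentation genes, 1 panel per gene with its own linear axis from 0, for 3 libraries each of FLM_G, FLM_M and BMM (points), with mean and SD (bars). FLM_G is highest in every panel by its mean, and H2-Aa in FLM_M is at 0.144 ± 0.059 FPKM against 7.24 ± 0.26 in BMM.

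The activator gene Ciita (ENSMUSG00000022504, GRCm38 chromosome 16, 10480059 to 10528418) was near the detection limit everywhere. It measured 0.144, 0.225 and 0.243 FPKM in FLM_G, 0.010, 0 and 0.009 in FLM_M, and 0.058, 0.103 and 0.061 in BMM. By the length of its longest transcript these levels stood for 20.2 to 36.4 reads per library in FLM_G, at most 2.3 in FLM_M and at most 21.1 in BMM. In scaled FPKM the 3 cultures did not overlap, and their order was that of the class II chains. Before scaling, the lowest FLM_G library was at 0.119 FPKM and the highest BMM library at 0.112. In reads FLM_G and BMM overlapped. Ciita did not pass the filter and has no call here. In a fit of 21953 genes with no filter, limma put the log2 difference at 0.16 (SE 0.03, adjusted p = 0.00393) for FLM_G against BMM, 0.25 (SE 0.03, adjusted p = 0.00026) for FLM_G against FLM_M and -0.10 (SE 0.03, adjusted p = 0.0573) for FLM_M against BMM. Ciita is transcribed from alternative promoters in different cell types, which levels per gene do not separate, and Dexi overlaps it on the opposite strand.

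Rfx5 (ENSMUSG00000005774, chromosome 3, 94954075 to 94961561), the DNA-binding subunit of the RFX complex, differed little. It measured 2.83, 3.67 and 2.92 FPKM in FLM_G, 2.80, 2.47 and 3.02 in FLM_M, and 1.70, 2.07 and 2.66 in BMM. FLM_M overlapped with both FLM_G and BMM, and FLM_G lay above BMM. The log2 change was 0.40 (SE 0.12, limma adjusted p = 0.018) for FLM_G against BMM. That call was lost without scaling (0.10, adjusted p = 0.498) and without FLM_G replicate 2 (adjusted p = 0.0555), BMM replicate 1 (0.0666) or BMM replicate 2 (0.0526), and with no filter on low values (0.36, adjusted p = 0.0531). FLM_M against BMM gave 0.27 (SE 0.12, adjusted p = 0.114), which passed without BMM replicate 3 (adjusted p = 0.0352). FLM_G against FLM_M gave 0.13 (SE 0.12, adjusted p = 0.356) and was negative without scaling (-0.23).

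The A chains had the largest log2 differences of the 9 tested members in FLM_M against BMM and in FLM_G against FLM_M. H2-Aa (ENSMUSG00000036594, chromosome 17, 34282744 to 34287823), which encodes the A alpha chain, measured 35.1, 40.8 and 39.4 FPKM in FLM_G, 0.081, 0.152 and 0.198 in FLM_M, and 6.94, 7.37 and 7.42 in BMM. The cultures were far apart, and the FLM_M levels stood for only 3.6 to 9.0 reads per library. H2-Aa rose by 2.26 (SE 0.07, limma adjusted p = 9.57e-09) in FLM_G against BMM and fell by 2.85 (SE 0.07, adjusted p = 8.09e-09) in FLM_M against BMM on the log2 scale. As a ratio of mean FPKM, FLM_G had 5.31 times and FLM_M 0.0198 times the BMM level.

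H2-Ab1 (ENSMUSG00000073421, chromosome 17, 34257689 to 34269419), which encodes the A beta chain that pairs with it, measured 34.0, 40.1 and 38.1 FPKM in FLM_G, 0.258, 0.255 and 0.212 in FLM_M, and 8.64, 7.80 and 9.01 in BMM. The paired chains therefore stood close to each other in FLM_G and BMM. The ratio of H2-Ab1 to H2-Aa was 0.973 ± 0.009 in FLM_G, 1.98 ± 1.10 in FLM_M and 1.17 ± 0.10 in BMM (SD, n = 3 each). H2-Ab1 rose by 2.02 (SE 0.08, limma adjusted p = 2.84e-08) in FLM_G and fell by 2.93 (SE 0.08, adjusted p = 9.38e-09) in FLM_M, both against BMM.

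H2-Eb1 (ENSMUSG00000060586, chromosome 17, 34305867 to 34316674), the E beta chain gene, measured 19.5, 23.9 and 21.2 FPKM in FLM_G, 1.09, 1.07 and 1.24 in FLM_M, and 8.08, 8.78 and 9.02 in BMM. It had the same order of cultures with a narrower range than the A chains. It rose by 1.22 (SE 0.08, limma adjusted p = 1.46e-06) in FLM_G and fell by 2.17 (SE 0.08, adjusted p = 8.82e-08) in FLM_M, both against BMM. The ratio of H2-Eb1 to H2-Ab1 was 0.573, 0.597 and 0.556 in FLM_G, 4.21, 4.20 and 5.86 in FLM_M, and 0.934, 1.13 and 1.00 in BMM. In FLM_M, H2-Eb1 was thus the most abundant of the 3 chain genes, and in FLM_G the least. The E alpha gene H2-Ea-ps was listed at 0 in all 9 libraries.

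Cd74 (ENSMUSG00000024610, on chromosome 18 and outside the class II region), the invariant chain gene, was more abundant than H2-Aa, H2-Ab1 or H2-Eb1 in every library. It measured 376, 453 and 431 FPKM in FLM_G, 14.4, 16.9 and 15.1 in FLM_M, and 35.0, 36.5 and 36.0 in BMM. It ranked 140th of 11952 tested genes by level in FLM_G, 3351st in FLM_M and 1462nd in BMM. It rose by 3.51 (SE 0.08, limma adjusted p = 1.14e-09) in FLM_G against BMM, 11.7 times the BMM level, the highest ratio among the 9 tested members. It fell by 1.16 (SE 0.08, adjusted p = 4.53e-06) in FLM_M to 0.431 times the BMM level, a smaller decrease than in any of the 3 chains.

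Cd74 and its client chains therefore did not move in proportion. The ratio of Cd74 to H2-Aa was 10.7, 11.1 and 10.9 in FLM_G, 178, 111 and 76.3 in FLM_M, and 5.04, 4.95 and 4.86 in BMM. The groups did not overlap in any pair, and the two-sided exact permutation test on log2 ratios gave p = 0.1 for each, the smallest value that 3 against 3 libraries allow. The range in FLM_M was wide, H2-Aa stood for few reads there, and the part of read number in it was not tested. Between FLM_G and FLM_M the result depended on the chain. As a ratio of mean FPKM, FLM_G had 27.1 times the FLM_M level of Cd74. It had 268 times that of H2-Aa and 155 times that of H2-Ab1, but only 19.0 times that of H2-Eb1.

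**Figure D2:**
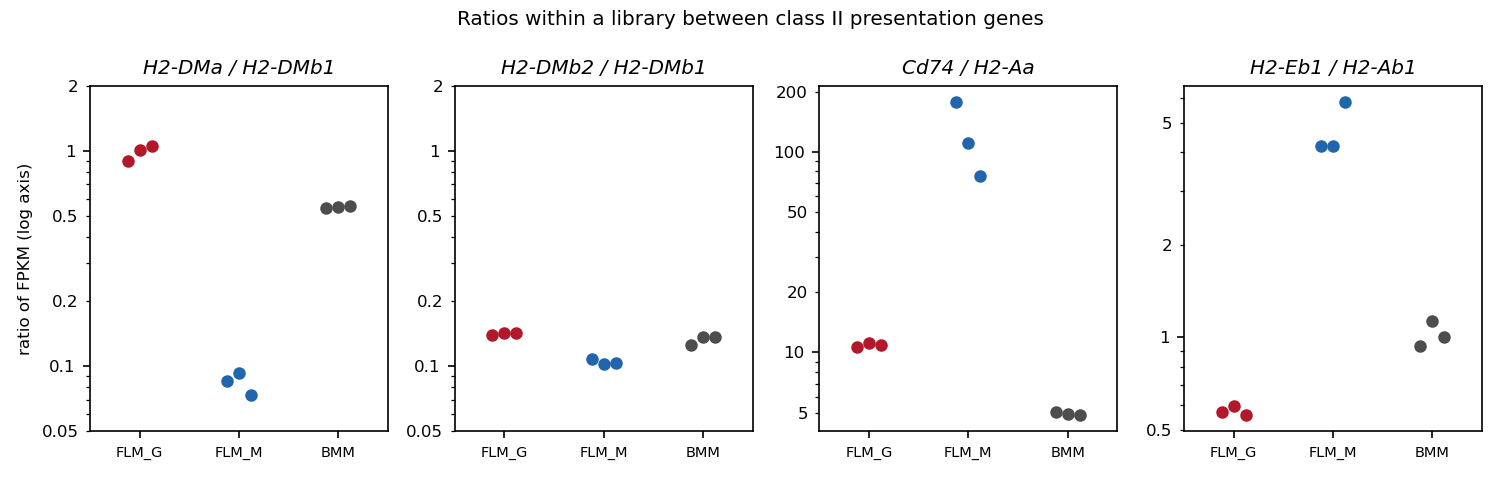
Ratio of the FPKM of 2 genes within each library (log axes), for 3 libraries each of FLM_G, FLM_M and BMM. H2-DMa to H2-DMb1 is 0.985 ± 0.080 in FLM_G, 0.084 ± 0.010 in FLM_M and 0.549 ± 0.005 in BMM, while H2-DMb2 to H2-DMb1 stays between 0.103 and 0.143 in all 9 libraries.

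The peptide exchange factor is a pair of an alpha and a beta chain, and the genes of the 2 chains went apart in FLM_M. H2-DMa (ENSMUSG00000037649, chromosome 17, 34119541 to 34139101), the alpha chain, measured 58.7, 68.0 and 71.8 FPKM in FLM_G, 1.63, 2.16 and 1.58 in FLM_M, and 7.09, 7.46 and 7.45 in BMM. H2-DMb1 (ENSMUSG00000079547, chromosome 17, 34153072 to 34160230), the beta chain, measured 65.5, 67.7 and 68.2 FPKM in FLM_G, 19.1, 23.2 and 21.4 in FLM_M, and 13.0, 13.6 and 13.4 in BMM. Both genes were highest in FLM_G, but FLM_M was below BMM in H2-DMa and above it in H2-DMb1, with no overlap.

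H2-DMa rose by 3.01 (SE 0.10, limma adjusted p = 1.12e-08) in FLM_G and fell by 1.58 (SE 0.10, adjusted p = 2.18e-06) in FLM_M, both against BMM. H2-DMb1 rose by 2.25 (SE 0.07, adjusted p = 6.36e-09) in FLM_G and rose by 0.63 (SE 0.07, adjusted p = 7.87e-05) in FLM_M, both against BMM. The chain genes stood near parity in FLM_G, whereas the alpha chain stood at 0.084 of the beta chain in FLM_M, as the plot of ratios shows. The log2 ratio of H2-DMa to H2-DMb1 fell by 2.71 in FLM_M against BMM (two-sided exact permutation p = 0.1, the smallest possible). H2-DMa is overlapped by Brd2 on the opposite strand, and Brd2 was at 29.1 FPKM in FLM_G, 26.3 in FLM_M and 29.4 in BMM.

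H2-DMb2 (ENSMUSG00000037548, chromosome 17, 34143307 to 34151555), a second beta chain gene beside H2-DMb1, measured 9.17, 9.66 and 9.68 FPKM in FLM_G, 2.06, 2.38 and 2.23 in FLM_M, and 1.63, 1.87 and 1.83 in BMM. It rose by 1.92 (SE 0.06, limma adjusted p = 1.07e-08) in FLM_G against BMM. Its log2 change in FLM_M against BMM was 0.21 (SE 0.06, adjusted p = 0.0204), a call lost without FLM_M replicate 2 (adjusted p = 0.056), FLM_M replicate 3 (0.0551) or BMM replicate 1 (0.0767). The ratio of H2-DMb2 to H2-DMb1 was 0.142 ± 0.001 in FLM_G, 0.105 ± 0.003 in FLM_M and 0.133 ± 0.007 in BMM. The cultures did not overlap in any pair (two-sided exact permutation p = 0.1 on log2 ratios for each, the smallest possible). The longest coding transcripts of the 2 genes in GENCODE M21 are 94.1% identical over 1219 aligned bases, and 176 of the 1304 read-length windows (101 bases) of H2-DMb1 also occur in H2-DMb2. These shared windows are 12.7% of those of H2-DMb2. Reads of the 2 genes may have been divided between them by the authors' counting. The level of H2-DMb2, its calls and its ratio to H2-DMb1 are therefore uncertain, and the part of shared reads in them was not tested. None of the other 8 members shared a window of that length with another gene's transcripts.

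Ctss (ENSMUSG00000038642, chromosome 3, 95526786 to 95556403), the protease that trims the invariant chain, was among the most abundant RNAs of every culture, 30th in FLM_G, 32nd in FLM_M and 30th in BMM. It measured 2347, 2169 and 2126 FPKM in FLM_G, 1224, 1321 and 1310 in FLM_M, and 1421, 1303 and 1341 in BMM, with overlap between FLM_M and BMM. It rose by 0.71 (SE 0.07, limma adjusted p = 1.52e-05) in FLM_G against BMM and by 0.78 (SE 0.07, adjusted p = 6.68e-06) against FLM_M, but was lower or level under quantile normalization (-0.14, adjusted p = 0.168, and -0.0011, adjusted p = 0.992). FLM_M against BMM gave -0.08 (SE 0.07, adjusted p = 0.387). Ctss stood at 5.32 ± 0.80 times the level of Cd74 in FLM_G, 83.3 ± 4.4 times in FLM_M and 37.8 ± 2.5 times in BMM.

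**Figure D3:**
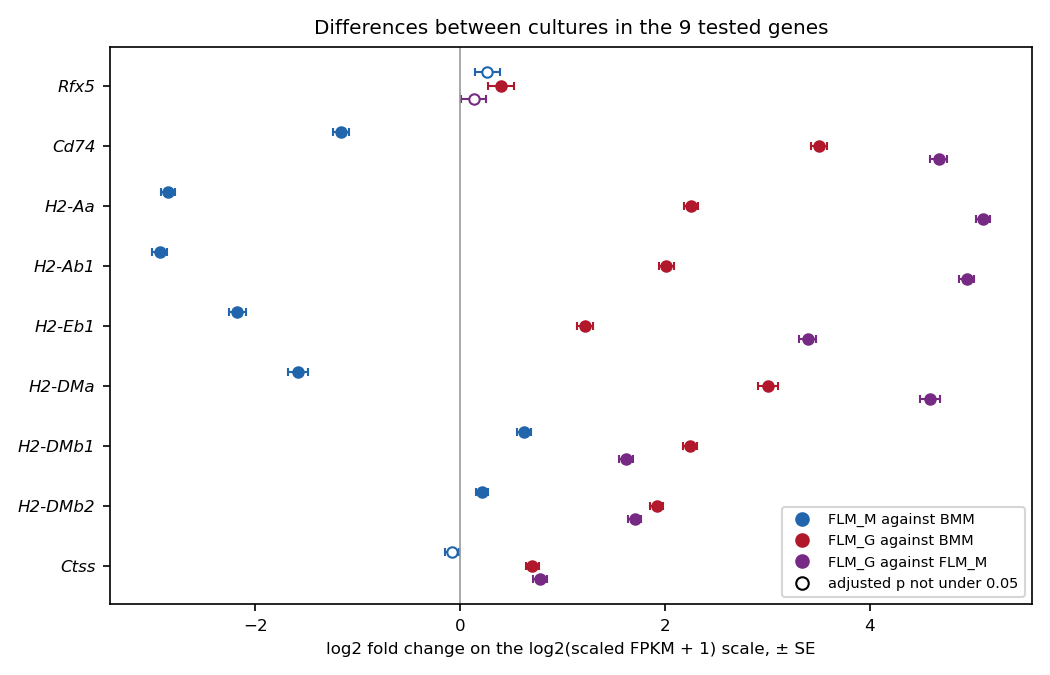
Log2 fold changes with SE of the 9 tested members for FLM_M against BMM, FLM_G against BMM and FLM_G against FLM_M, filled where limma's adjusted p is under 0.05. The chains, Cd74 and H2-DMa lie left of 0 for FLM_M against BMM (-1.16 to -2.93) and right of 0 for FLM_G, and H2-DMb1 and H2-DMb2 lie right of 0 in all 3 comparisons.

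In FLM_G against FLM_M, the chains, Cd74 and H2-DMa differed more than the H2-DM beta genes. H2-Aa was higher in FLM_G than in FLM_M by 5.11 (SE 0.07, limma adjusted p = 5.49e-11), H2-Ab1 by 4.95 (SE 0.08, adjusted p = 8.57e-11) and H2-Eb1 by 3.40 (SE 0.08, adjusted p = 1.33e-09). Cd74 was higher by 4.67 (SE 0.08, adjusted p = 1.58e-10), 27.1 times the FLM_M level. H2-DMa was higher by 4.59 (SE 0.10, adjusted p = 5.94e-10), H2-DMb1 by 1.62 (SE 0.07, adjusted p = 4.77e-08) and H2-DMb2 by 1.70 (SE 0.06, adjusted p = 2.01e-08). The beta chain genes of H2-DM thus differed by about 3 to 4 times in mean FPKM, at 3.16 and 4.27, against 37.0 times for their alpha partner.

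The class II region of chromosome 17, from H2-Oa to H2-Eb2 (34092340 to 34341412), holds 14 protein-coding genes, 6 of them members. Between the H2-DM genes and the classical chains lie Tap1 and Tap2, the peptide transporter of class I presentation, and Psmb8 and Psmb9, subunits of the immunoproteasome. These 4 genes, named after their values were seen, were called in the direction opposite to the classical chains in FLM_G and in FLM_M, both against BMM. Over all tested genes 34.1% were called lower in FLM_G and 22.7% higher in FLM_M, both against BMM. Brd2, the other tested non-member of the region, was called neither in FLM_G (-0.01, limma adjusted p = 0.923) nor in FLM_M (-0.15, adjusted p = 0.145). The members H2-DMb1 and H2-DMb2 were also called higher in FLM_M than in BMM. Tap1 rose by 1.04 (limma adjusted p = 4.20e-05) in FLM_M against BMM and fell by 1.00 (adjusted p = 2.33e-05) in FLM_G against BMM. Psmb8 was at 17.3 FPKM in FLM_G, 60.5 in FLM_M and 35.1 in BMM, the reverse of the order of H2-Ab1. Psmb9 and Tap2 were likewise called higher in FLM_M and lower in FLM_G than in BMM. Psmb9 and Tap1 overlap at their ends on opposite strands. Of the class II genes outside the 10 members, H2-Oa, a chain of the H2-O modulator of H2-DM, was at 1.73 ± 0.55 FPKM in FLM_G, 0.201 ± 0.053 in FLM_M and 0.096 ± 0.008 in BMM. Its partner H2-Ob was listed at 0 in all FLM_G libraries and was at 0.313 ± 0.019 in FLM_M and 0.370 ± 0.094 in BMM. H2-Eb2, whose promoter holds the X and Y cores, was at 0.0264 FPKM or less in every library, and none of the 3 passed the filter, H2-Oa because its FPKM before scaling was under 1 in 1 FLM_G library.

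**Figure D4:**
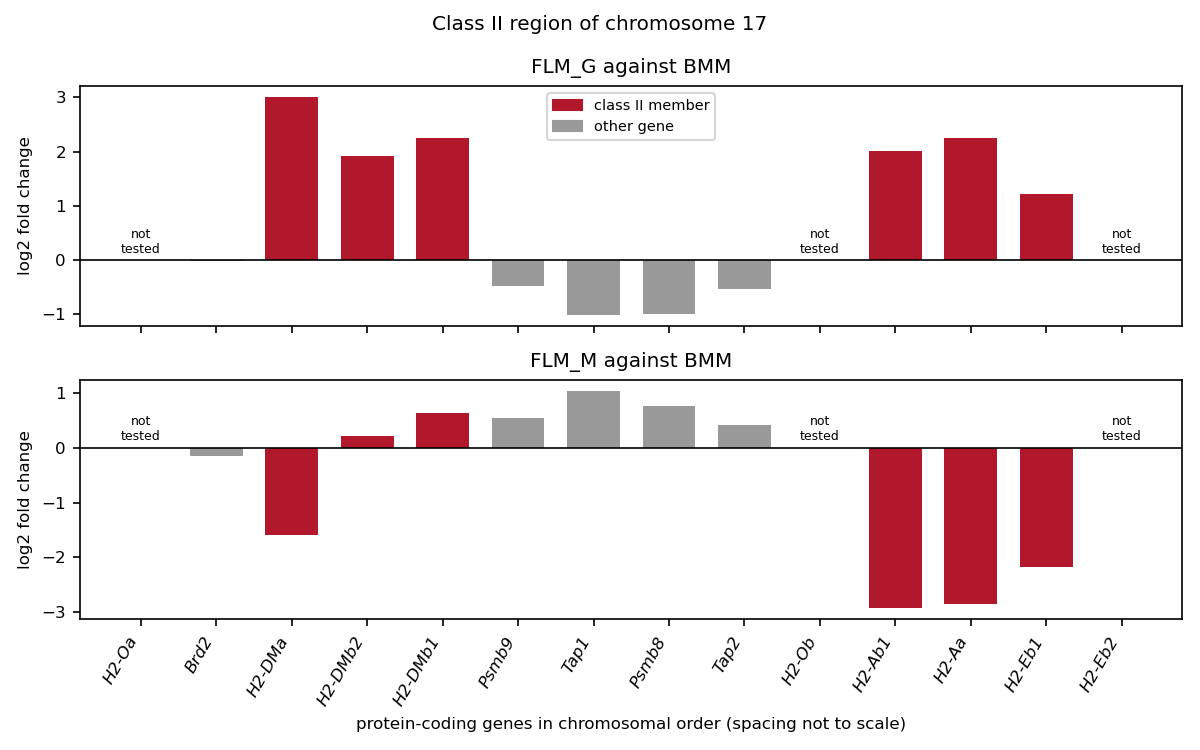
Log2 fold changes of the protein-coding genes of the class II region on chromosome 17 in chromosomal order (bars, members in red, other genes in grey), for FLM_G against BMM above and FLM_M against BMM below. Psmb9, Tap1, Psmb8 and Tap2 point down in FLM_G and up in FLM_M, whereas H2-Ab1, H2-Aa and H2-Eb1 point up in FLM_G and down in FLM_M.

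Among the partners of RFX5 and CIITA on class II promoters, the number called in FLM_G was near the share over all genes. In FLM_G against BMM 1 of 10 rose and 6 fell (1 and 7 without scaling), and in FLM_M against BMM 1 rose and 1 fell (2 and 1 without scaling). Over all tested genes 68.0% were called in FLM_G against BMM (33.8% higher, 34.1% lower) and 44.6% in FLM_M against BMM (22.7% higher, 21.9% lower). Rfxank, an RFX subunit, was the gene that rose in FLM_G, at 8.16 ± 0.81 FPKM in FLM_G, 3.19 ± 0.19 in FLM_M and 2.54 ± 0.43 in BMM, higher in FLM_G than in BMM by 1.37 on the log2 scale (limma, SE 0.10, adjusted p = 3.32e-06). Rfxap, the third RFX subunit, was at 5.90 ± 0.34 FPKM in FLM_G, 9.10 ± 0.93 in FLM_M and 7.49 ± 0.11 in BMM, and its call in FLM_M was lost without FLM_M replicate 2 or 3 or any 1 of the BMM replicates (adjusted p = 0.0645 to 0.0863). Among those that fell in FLM_G against BMM were the coactivator genes Ep300, by 0.63 (SE 0.11, adjusted p = 0.00112), and Kat2b, by 0.49 (SE 0.11, adjusted p = 0.00411), and the NF-Y subunit gene Nfya, by 0.46 (SE 0.10, adjusted p = 0.00381). Creb1 varied within groups from 0.417 to 3.38 FPKM in FLM_G, from 1.07 to 4.02 in FLM_M and from 0.893 to 4.50 in BMM.

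Genes of the interferon-gamma signal and factors reported to act on Ciita were called in both directions. Of 11 tested, 3 rose and 4 fell in FLM_G against BMM (1 and 8 without scaling), and 2 rose and 1 fell in FLM_M against BMM (3 and 1 without scaling). In FLM_G these counts are close to the shares over all genes, 33.8% higher and 34.1% lower, and in FLM_M fewer were called than the 44.6% over all genes. Ifngr1, a chain of the interferon-gamma receptor, was at 25.8 ± 0.8 FPKM in FLM_G, 43.0 ± 3.2 in FLM_M and 32.0 ± 1.6 in BMM, the reverse of the order of the chains. It fell by 0.30 (SE 0.06, limma adjusted p = 0.00279) in FLM_G and rose by 0.41 (SE 0.06, adjusted p = 0.00086) in FLM_M, both against BMM. Spi1, which encodes the myeloid factor PU.1, rose by 0.96 (SE 0.09, adjusted p = 1.54e-05) in FLM_G against BMM, at 170.4 ± 19.8 FPKM in FLM_G, 93.4 ± 7.6 in FLM_M and 86.8 ± 2.6 in BMM. Usf1 fell by 0.84 (SE 0.14, adjusted p = 0.000603) and Irf8 by 0.49 (SE 0.05, adjusted p = 3.08e-05) in FLM_G against BMM. Irf8 also fell by 0.24 (SE 0.05, adjusted p = 0.00492) in FLM_M.

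Of 9 endosomal processing genes, 3 rose and 5 fell in FLM_G against BMM (3 and 6 without scaling), beside 33.8% higher and 34.1% lower over all tested genes. In FLM_M against BMM 1 rose and 6 fell (the same counts without scaling), beside 22.7% higher and 21.9% lower over all tested genes. Ctsh, an aminopeptidase cathepsin, had the order of the chains, at 27.3, 41.9 and 42.5 FPKM in FLM_G, 0.157, 0.298 and 0.151 in FLM_M, and 20.0, 19.4 and 18.9 in BMM. Like H2-Aa and H2-Ab1, Ctsh lay under 1 FPKM in FLM_M and passed the filter through the other 2 cultures. Ctsh fell by 4.09 (SE 0.15, limma adjusted p = 8.82e-08) in FLM_M and rose by 0.88 (SE 0.15, adjusted p = 0.000868) in FLM_G, both against BMM. Lgmn, the asparaginyl endopeptidase, fell by 1.82 (SE 0.05, adjusted p = 2.42e-09) in FLM_G against BMM, and Ifi30, the lysosomal thiol reductase that opens disulfides of antigens, by 1.66 (SE 0.07, adjusted p = 6.91e-08). Ctsl, the protease that trims the invariant chain in thymic epithelium, fell by 1.47 (SE 0.05, adjusted p = 2.07e-08) in FLM_G and by 1.03 (SE 0.05, adjusted p = 6.06e-07) in FLM_M, both against BMM. Ctsz rose by 1.57 (SE 0.06, adjusted p = 3.82e-08) in FLM_G and by 0.97 (SE 0.06, adjusted p = 2.62e-06) in FLM_M, both against BMM. Ctsd, the aspartic protease, was called higher in FLM_G than in BMM by 1.36 (SE 0.08, adjusted p = 4.67e-07) with scaling factors but lower under quantile normalization (-0.40, adjusted p = 0.0266), and it fell by 0.62 (SE 0.08, adjusted p = 0.000201) in FLM_M against BMM.

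Of 7 genes for the turnover and membrane partners of class II, 4 rose and 1 fell in FLM_G against BMM (4 and 2 without scaling), and 3 rose and 1 fell in FLM_M against BMM (the same counts without scaling), where 68.0% and 44.6% of all tested genes were called. March1, the ubiquitin ligase that removes class II from the surface of resting dendritic cells and B cells, was at 12.4, 11.8 and 8.97 FPKM in FLM_G, 1.43, 1.15 and 1.40 in FLM_M, and 1.46, 1.57 and 1.53 in BMM, and it rose by 2.25 (SE 0.11, limma adjusted p = 1.71e-07) in FLM_G against BMM. Cd9, a tetraspanin, had the order of the chains, at 1440 ± 57 FPKM in FLM_G, 81.4 ± 6.3 in FLM_M and 169.0 ± 8.0 in BMM. March8 differed up to several times within a group, from 1.37 to 13.1 FPKM in FLM_G, from 2.02 to 3.18 in FLM_M and from 2.24 to 10.3 in BMM, and was not called in any comparison, though FLM_G against BMM passed without FLM_G replicate 1 (limma adjusted p = 0.0459). Of the genes for ligands and partners of CD74 as a receptor, 4 of 6 were tested, of which 2 rose and 1 fell in FLM_G against BMM (0 and 1 without scaling) and 1 rose and 1 fell in FLM_M against BMM (2 and 1 without scaling). With 4 genes these counts are too few to set against the 68.0% and 44.6% called over all genes. Mif, its cytokine ligand, ran against Cd74 in FLM_G, at 105.9 ± 13.3 FPKM in FLM_G, 167.7 ± 14.4 in FLM_M and 310.7 ± 17.1 in BMM. It fell by 1.55 (SE 0.10, adjusted p = 1.23e-06) in FLM_G and by 0.89 (SE 0.10, adjusted p = 0.000119) in FLM_M, both against BMM.

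**Figure D5:**
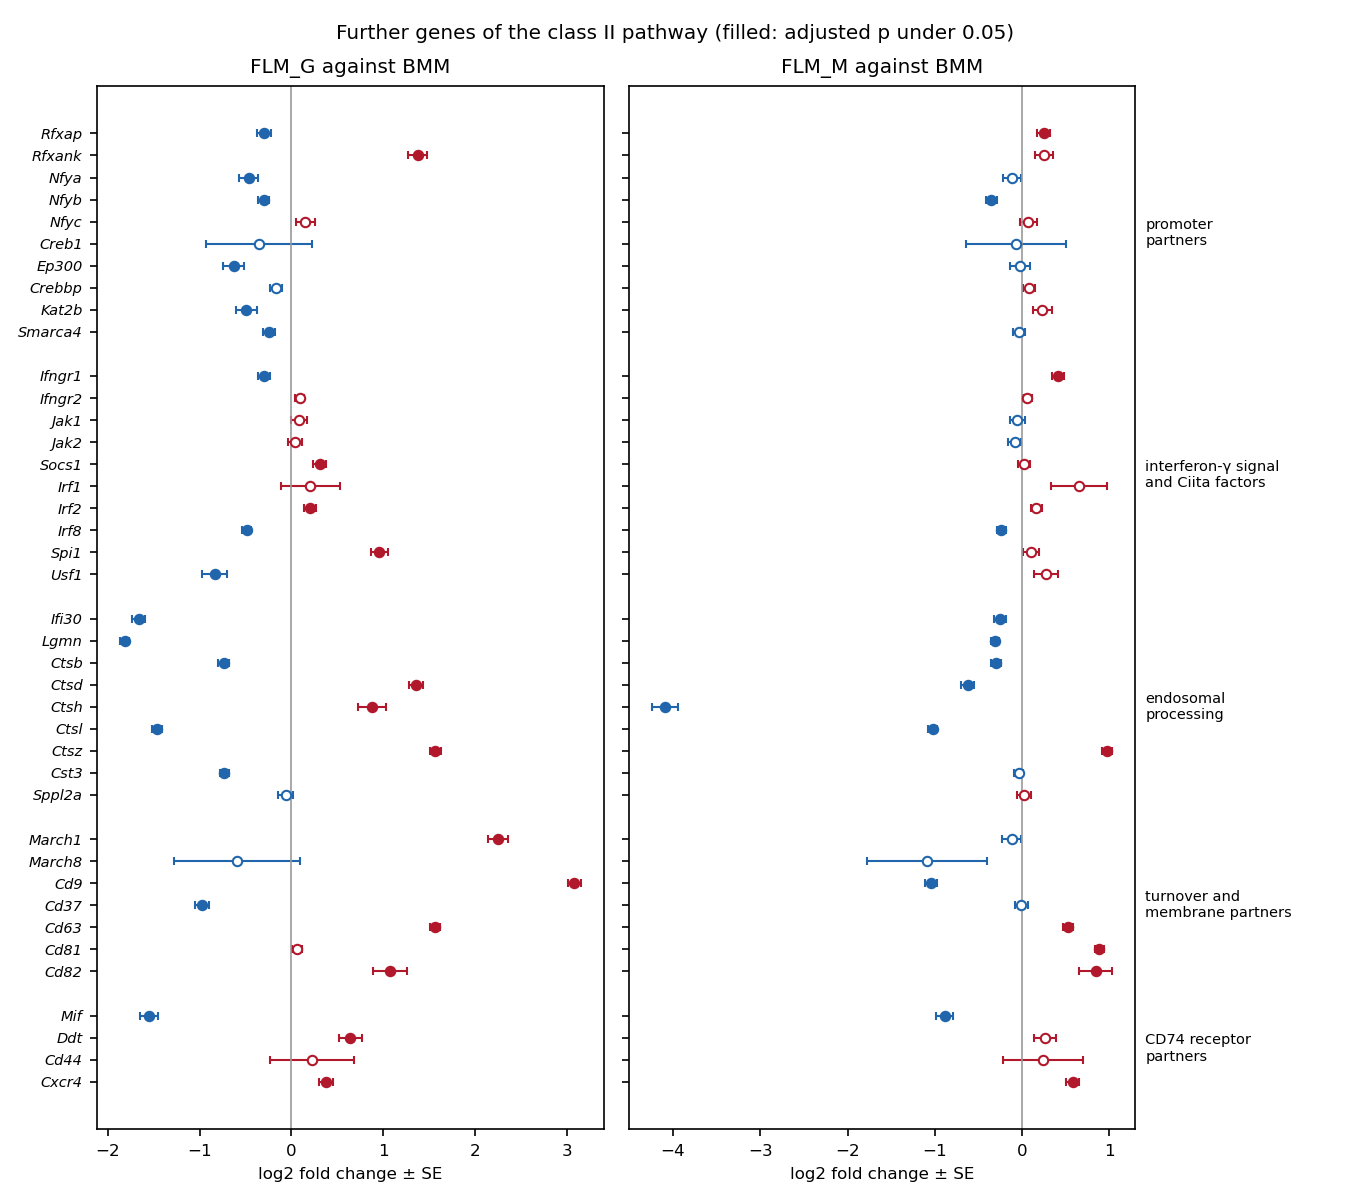
Log2 fold changes with SE of tested genes of 5 further lists of the class II pathway, for FLM_G against BMM (left) and FLM_M against BMM (right), red for positive and blue for negative values, filled where limma's adjusted p is under 0.05. Ifngr1 lies left of 0 in FLM_G (-0.30) and right of 0 in FLM_M (0.41), Ctsh lies at -4.09 in FLM_M, and wide bars mark Creb1, March8 and Cd44.

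Most markers of other cells that hold class II were at or near 0. Clec9a, through FLM_G, and Cd79b, through BMM, passed the filter on low values. The 6 B cell markers summed to 0 FPKM in every FLM_G and FLM_M library and to 0.953 to 1.12 in BMM, with Cd79a, Pax5 and Ebf1 listed at 0 in all 9 libraries. The 7 dendritic cell markers summed to 2.13 to 3.08 FPKM in FLM_G, 0.380 to 0.520 in FLM_M and 0.226 to 0.289 in BMM. Nearly all of the FLM_G sum was Clec9a at 2.45 ± 0.48 FPKM, with Flt3, Xcr1, Cd209a and Dpp4 listed at 0 there. Zbtb46 was highest in FLM_M, at 0.331 FPKM against 0.066 in FLM_G and 0.014 in BMM. Ccr7 was highest in BMM, at 0.139 FPKM against 0.027 in FLM_G, and was listed at 0 in FLM_M. Clec9a was called higher in FLM_G than in BMM (log2 change 1.70, limma adjusted p = 2.51e-07) and than in FLM_M (1.63, adjusted p = 2.93e-07). The part of Clec9a-expressing cells in the class II levels was not tested. Markers of T cells, hepatocytes and erythroid cells summed to at most 2.57 FPKM in any library.

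The genes nearest to the chains in pattern were sought among 7399 tested genes with at least 5 FPKM in the highest culture, by the distance between the 3 group means of log2(FPKM + 1), each centred on its own mean. The nearest was Gdf15, a secreted stress cytokine, at 26.6 ± 2.8 FPKM in FLM_G, listed at 0 in FLM_M and at 5.34 ± 0.19 in BMM (distance 0.24). Pstpip2, an adaptor of the actin cytoskeleton, followed at 22.9 ± 1.5 FPKM in FLM_G, 0.296 ± 0.093 in FLM_M and 5.16 ± 0.04 in BMM (distance 0.29). The next were Mical1 (distance 0.33), Gda (0.35) and Nr1h3, which encodes the oxysterol receptor LXR alpha (0.37). Ciita is nearly flat on this scale because 1 was added to levels that were all under 1 FPKM. The same search therefore returned genes with small differences, which does not make them a match to the pattern of Ciita. Among them was Strn at 6.59 ± 0.56 FPKM in FLM_G, 5.33 ± 0.59 in FLM_M and 5.79 ± 0.15 in BMM.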

How the data were processed

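RNA of 9 libraries was analysed (3 each of FLM_G, FLM_M and BMM), read for 101 cycles from 1 end after TruSeq stranded mRNA preparation, per the labels' protocols. The authors deposited FPKM and whole-number counts per Ensembl gene. The submitters' processing notes list HISAT2, StringTie, DESeq2, cutadapt, FastQC and bcl2fastq, with GRCm38 and mm10 as builds; which tool made which table, their versions and the strand setting are not given in the sources used here. The deposited counts summed to 782400 to 1170813 per library, with 0.236% (median) of the reads that the FPKM imply in 1087 genes of 1 transcript, so FPKM were used and counts kept as an alternative. FPKM were divided by unweighted TMM factors (edgeR 4.0.16; 0.80 to 1.14) and tested as log2(FPKM + 1) with limma 3.58.1 (trend, R 4.3.3; 1 mean per group, 9 libraries, 6 residual degrees of freedom), and the step was tested on simulated data. FPKM values of 0 can be failed estimates. Reads per library came from the value of 1 read in genes of 1 transcript. Members and lists were chosen with earlier results of these data known, and the neighbours in the class II region and the promoter letters after their values or sequences were seen. Named were all members, all class II genes outside them, and per list and comparison up to 4 called genes of the largest change with at least 5 FPKM in the higher group. Other scalings, filters, pseudocounts, designs, DESeq2 1.42.0 and edgeR on counts, and each library left out were the alternatives. Positions are those of GENCODE M21 (GRCm38) by Ensembl identifier. Some genes that belong to the lists or met the naming rule are not reported here, though the counts over the lists hold them.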

Additional observations from a re-analysis of the deposited data

How the results depend on the processing

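The members' calls held under RLE and upper-quartile scaling, a pseudocount of 0.1 and a fit of only the 6 libraries compared. Over all alternatives, those on the deposited counts included, 509 of 543 member values kept direction and side of the threshold. Without each library in turn, 6 to 8 members were called in FLM_M against BMM, 8 to 9 in FLM_G against BMM and 8 in FLM_G against FLM_M. Against a 1.5-fold change 1045, 2740 and 3162 genes passed in FLM_M against BMM, FLM_G against BMM and FLM_G against FLM_M. On the deposited counts, at an adjusted p under 0.05 with no fold required, 1300, 2458 and 2855 genes were called in edgeR and 838, 2213 and 2641 in DESeq2. With edgeR on counts, where 3 members had enough counts to be tested, 0, 2 and 1 were called (0, 2 and 2 at an unadjusted p under 0.05), and with DESeq2 1, 4 and 5. Signs turned for Rfx5 in FLM_G against FLM_M without scaling (-0.23). They turned for Ctss under quantile normalization in FLM_G against BMM (-0.14) and FLM_G against FLM_M (-0.0011). On counts in FLM_M against BMM, signs turned for Rfx5 (-0.30 in edgeR, -0.39 in DESeq2), Ctss (0.41 and 0.32) and H2-Eb1 (0.64 in DESeq2). Over all libraries Ctss had 3695 counts, Rfx5 279, Cd74 277 and the other members 57 or fewer. Counts were 8.06% of the reads implied by the FPKM for Rfx5, 6.36% for Ciita and 0.118% to 1.01% for the other members. An earlier account of these data found the counts to follow the opposite strand, so fits on the counts cannot decide the members' calls. The cause of these differences was not tested. Same-numbered libraries correlated at -0.08 to 0.09 after removal of group means, and 10 of 18 correlated best with their own number. With 3 libraries per group these values cannot decide whether the numbers pair the libraries. With a replicate block 5140, 8018 and 8386 genes and 7, 9 and 8 members were called. The depth limits Ciita in every culture and H2-Aa and H2-Ab1 in FLM_M, where a library held 12.4 reads or fewer of either chain.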

Other observations

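Irf4, Prdm1 and Cxcr2, genes of the lists above, did not pass the filter, which was set on FPKM before scaling, and are given as scaled levels. Irf4, a factor of lymphoid and dendritic cells, was at 1.66, 1.24 and 1.25 FPKM in FLM_G, at 0.209, 0.138 and 0.239 in FLM_M and at 0.251, 0.209 and 0.259 in BMM, with FLM_G above both. Prdm1, a repressor of Ciita in plasma cells, was at 1.14 ± 0.20 FPKM in FLM_G, 0.401 ± 0.083 in FLM_M and 0.817 ± 0.022 in BMM. Cxcr2, a chemokine receptor that can pair with CD74, was at 0.867 ± 0.240 FPKM in FLM_G, 0.006 ± 0.011 in FLM_M and 0.014 ± 0.013 in BMM. All 3 had their highest mean in FLM_G, and no test was made.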
